A study of Mus musculus with 9 samples.

Results

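The main olfactory epithelium (MOE), with which the nose senses odours, lies on thin scrolls of bone and cartilage called turbinates, and RNA of that skeleton was present in every library. Of the 24421 genes in the count table, 9 were followed here, chosen by name as genes of osteoblasts, osteocytes and chondrocytes: Runx2, Sp7, Alpl, Phex, Ibsp, Spp1, Dmp1, Bglap and Acan. All 9 were detected in all 9 libraries and entered the tests. Their levels spanned a wide range, led by Spp1, and edgeR's test found 0 of them to differ between any pair of genotypes.

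Osteoblasts are the cells that lay down bone. They arise under the transcription factors Runx2 and Sp7 (osterix), secrete a collagen matrix and then mineralize it. Tissue-nonspecific alkaline phosphatase, encoded by Alpl, frees phosphate for the mineral, and Phex, a membrane peptidase, acts on phosphate balance. Ibsp (bone sialoprotein), Spp1 (osteopontin) and Dmp1 (dentin matrix protein) are acidic proteins of the matrix from one gene cluster, Bglap (osteocalcin) is a small secreted protein of late osteoblasts, and Acan (aggrecan) is the large proteoglycan of cartilage. Osteoblasts that are buried in the matrix become osteocytes, where Dmp1 and Phex are high. Spp1 is also made by osteoclasts, the cells that resorb bone, and by other cells.

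The MOE of 9 mice was sequenced, 3 of each genotype: wild type (WT), TAAR enhancer 1 +/- (heterozygous) and TAAR enhancer 1 -/- (homozygous). The enhancer is a noncoding element in the cluster of olfactory trace amine-associated receptor (Taar) genes, deleted in the germline with CRISPR-Cas9 in a single mouse line, so every cell of a homozygous mouse lacks it. Labels give the strain as C57BL/6 and the age as postnatal day 14, whereas the reporting summary of the study speaks of a mixed background and of older mice for this line, and this was not resolved. The study compared genotypes to ask what the enhancer does for receptor genes, and the skeletal genes describe what else was dissected with the epithelium. In bulk tissue, fewer cells of a type and less RNA per cell cannot be told apart.

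Library size ranged from 24583906 to 32631951 reads in genes. A level in CPM is a gene's reads per 1000000 reads of its library after TMM scaling, and 3 reads corresponded to 0.0916 to 0.122 CPM. Reads of Taar2 to Taar5, receptor genes beside the element, matched the labels, with 227 to 337 reads in WT, 158 to 176 in heterozygous and 1 to 3 in homozygous libraries. Heterozygous mouse 1 and homozygous mice 2 and 3 stood apart in vomeronasal receptor genes, which summed to 67.3, 120 and 69.7 CPM there and to 14.5 to 17.3 CPM in the other 6 libraries. The labels describe no such difference in dissection, and several of the fold changes and correlations are also given without these 3 libraries.

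The osteocalcin family of the mouse has 3 neighbouring genes on the minus strand of chromosome 3, and their near identity decides which reads can be counted for Bglap. Bglap lies at chr3:88383501-88384464, Bglap2 at chr3:88377736-88378699 and Bglap3 at chr3:88368616-88372743 (GRCm38, GENCODE M21). The coding sequences of 285 bases, without the stop codon, are shown because they make this visible, and capitals mark the bases of Bglap2 and Bglap3 that differ from Bglap.
Bglap: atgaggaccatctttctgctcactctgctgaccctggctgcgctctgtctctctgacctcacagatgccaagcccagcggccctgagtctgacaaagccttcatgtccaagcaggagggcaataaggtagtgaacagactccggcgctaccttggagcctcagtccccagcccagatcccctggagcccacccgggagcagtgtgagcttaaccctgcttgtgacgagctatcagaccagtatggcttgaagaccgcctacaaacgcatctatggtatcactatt
Bglap2: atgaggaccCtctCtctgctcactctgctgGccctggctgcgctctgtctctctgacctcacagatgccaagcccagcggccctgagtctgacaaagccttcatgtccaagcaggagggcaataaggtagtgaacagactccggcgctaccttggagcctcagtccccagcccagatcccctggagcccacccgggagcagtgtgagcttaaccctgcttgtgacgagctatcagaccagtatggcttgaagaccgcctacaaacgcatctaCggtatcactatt
Bglap3: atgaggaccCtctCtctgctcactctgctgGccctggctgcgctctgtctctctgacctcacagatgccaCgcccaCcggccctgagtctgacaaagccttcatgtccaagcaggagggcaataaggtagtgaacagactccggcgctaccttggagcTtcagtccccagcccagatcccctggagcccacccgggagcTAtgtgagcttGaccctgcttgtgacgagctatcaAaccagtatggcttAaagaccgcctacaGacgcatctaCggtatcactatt
Bglap2 differed from Bglap at 4 coding bases (98.6% identical) and Bglap3 at 13 (95.4% identical). Over the whole transcripts, 25.3% of the 50-base stretches and 43.7% of the 100-base stretches of Bglap occur in no other annotated gene. The shares were 11.8% and 43.0% for Bglap2, and 85.8% and 99.0% for Bglap3. Reads that fall in the shared stretches cannot be assigned, so the counts of Bglap and Bglap2 are uncertain and cover part of each transcript. The other members had few shared stretches: Spp1 was 90.9% unique and Runx2 92.0% at 50 bases, and the remaining 6 were at 99.3% or more.

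Start site sequence was available from RefSeq (GRCm38.p6) for 8 of the 9 members, in 11 windows of 300 bases that run from 250 before a start to 50 after it. Both strands were searched for the RUNX core ACCACA and for the TATA box TATAAA, which do not overlap each other in these windows. The RUNX core was found in 4 of the 11 windows (of Bglap, Dmp1, Spp1 and Runx2), against 16.8% of all 32851 windows. The letters TATAAA, on either strand, were found in 4 of the 11 windows (of Bglap, Spp1, Ibsp and Alpl), against 13.6%. From the start they lay at -27 in Bglap and -28 in Ibsp, but at -211 in Spp1 and -192 in Alpl. A match describes the letters in the window and is not a measured binding site. Spp1 and Dmp1 varied together across the libraries, and for each the window that holds a match is printed, beside that of Bglap, with both motifs in capitals. Each has another window, at chr5:104435942-104436241 for Spp1 and chr5:104197325-104197624 for Dmp1, with 0 matches to either motif.
Spp1, chr5:104434861-104435160, plus strand: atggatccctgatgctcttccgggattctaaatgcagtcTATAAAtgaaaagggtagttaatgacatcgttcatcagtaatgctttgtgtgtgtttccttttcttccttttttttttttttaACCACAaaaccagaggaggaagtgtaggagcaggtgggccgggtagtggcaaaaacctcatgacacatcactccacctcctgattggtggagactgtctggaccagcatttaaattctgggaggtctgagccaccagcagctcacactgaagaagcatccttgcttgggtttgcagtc
Dmp1, chr5:104202367-104202666, plus strand: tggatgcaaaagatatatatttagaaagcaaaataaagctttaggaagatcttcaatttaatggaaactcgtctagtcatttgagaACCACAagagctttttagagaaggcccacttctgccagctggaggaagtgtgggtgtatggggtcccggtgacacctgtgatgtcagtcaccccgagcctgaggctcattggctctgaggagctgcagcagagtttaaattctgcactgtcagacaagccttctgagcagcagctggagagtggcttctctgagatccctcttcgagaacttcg
Bglap, chr3:88384417-88384716, minus strand: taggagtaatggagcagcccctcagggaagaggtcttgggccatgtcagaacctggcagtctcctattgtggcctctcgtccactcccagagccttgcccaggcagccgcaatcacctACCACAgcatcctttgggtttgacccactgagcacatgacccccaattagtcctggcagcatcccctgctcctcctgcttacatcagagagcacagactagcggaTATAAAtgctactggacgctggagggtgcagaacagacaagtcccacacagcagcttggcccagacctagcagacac
In Spp1 the RUNX core lay at position -128 from the start and the TATA letters at -211. In Dmp1 the RUNX core lay at -164, and TATAAA did not occur in the window. In Bglap the RUNX core lay at -132 and the TATA box at -27.

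In GRCm38 (GENCODE M21) the transcription factors lie at chr17:44495987-44814797 (Runx2) and chr15:102356606-102367182 (Sp7), both on the minus strand. The enzymes are at chr4:137741733-137796384 (Alpl, minus strand) and chrX:157162075-157415312 (Phex, minus strand), and Acan is at chr7:79053483-79115099 on the plus strand. Reads were counted over exons of whole genes, so isoforms were not resolved.

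Secreted matrix genes were the most abundant members. Spp1 had a mean of 1433 CPM over the 9 libraries, the 27th highest of the 20213 genes tested, and Ibsp had 590.0 CPM, the 111th highest. Those ranks, and the order of genes in the marker lists below, are by CPM and are not corrected for gene length. The 9 members were compared with each other after division by exon length, as CPM per kb. On that scale Spp1 was at 869, Ibsp at 285, Bglap at 90.3 and Dmp1 at 64.6. The enzyme Alpl followed at 32.0, then the transcription factor Sp7 at 18.9, the enzyme Phex at 8.36 and the transcription factor Runx2 at 7.09. Acan was lowest at 2.56 CPM per kb. The level of Bglap is uncertain, since it rests on the reads its copies leave to it. In this order each gene exceeded the next in all 9 libraries, and ranges over the libraries overlapped in 1 step only, between Phex and Runx2.

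**Figure D1:**
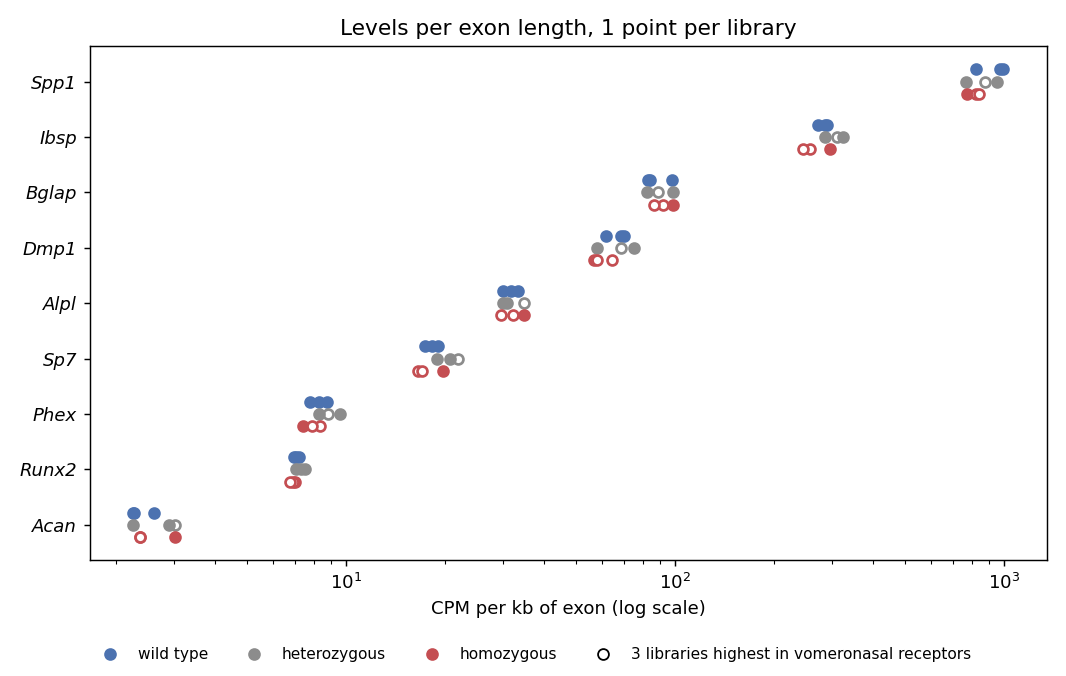
CPM per kb of exon of the 9 genes on a log scale, 1 point per library, coloured by genotype, with open points for the 3 libraries highest in vomeronasal receptors. Levels fall from Spp1 at 869 to Acan at 2.56 CPM per kb, and only Phex and Runx2 overlap.

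Other genes of the same cells were read from lists of markers to check what tissue the 9 genes stand for. All 20 further osteoblast and bone matrix genes were detected, and the highest were Col1a2 at 6064 CPM, Col1a1 at 4856 CPM (the chains of type I collagen, which fibroblasts also make) and Sparc at 2514 CPM, a glycoprotein that binds collagen and mineral. All 7 osteocyte genes were detected too, but at lower levels. Fam20c, a kinase of secreted matrix proteins, was at 66.5 CPM, Pdpn at 20.0 and Irx5 at 9.66. Sost (sclerostin), the defining product of mature osteocytes, was at 1.42 CPM, the matrix protein Mepe at 4.06 and the phosphate hormone Fgf23 between 0.570 and 1.93 CPM.

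Cartilage genes were detected at mixed levels. Among 20 chondrocyte genes the highest were the minor fibrillar collagens Col11a2 (356 CPM) and Col11a1 (325 CPM), which osteoblasts also express, and Col10a1 (66.7 CPM), the collagen of hypertrophic cartilage. Col2a1, the main collagen of cartilage, was at 32.0 CPM, which is 3.47 CPM per kb. Matn1 at 0.329, Matn3 at 0.323, Ucma at 0.316 and Snorc at 0.101 CPM, were close to the limit of 3 reads. Other genes of the list were well above it, among them the type IX collagens Col9a2 (61.0 CPM), Col9a1 (41.1 CPM) and Col9a3 (29.7 CPM) and the chondrocyte transcription factor Sox9 (26.5 CPM). The RNA of Acan was not traced to a cell type.

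Osteoclast genes were abundant, with Ctsk (cathepsin K) at 407, Acp5 (tartrate-resistant acid phosphatase) at 362 and Mmp9 at 233 CPM. Teeth lie close to the dissected tissue and express several of the 9 genes, but most enamel and dentin genes were almost absent. Over the 9 libraries together Dspp had 5 reads, Amelx 7, Enam 6, Amtn 4, Klk4 29 and Mmp20 0. Ambn was low but present in every library, with 149 reads in all and 0.214 to 0.889 CPM. Without Odam, which supplied 93.0% of the summed tooth list, that list stayed between 0.428 and 1.16 CPM. The 8 skeletal muscle genes summed to 4.42 to 5.73 CPM. The bone marrow list was carried by Ltf, at 266 to 847 CPM, and without it summed to between 22.6 and 37.3 CPM. Alas2 (9.13 CPM), S100a9 (9.02 CPM), Prtn3 (4.71 CPM) and S100a8 (4.28 CPM) were detected, whereas Elane (0.178 CPM) and Mpo (0.236 CPM) were low. Adult haemoglobin genes were listed at 0 in every library and were not read.

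For homozygous against WT mice, edgeR called 10 of 20213 genes (0.0495%) at an adjusted p under 0.05, and 0 of the 9 bone and cartilage genes. At an unadjusted p under 0.05 there was 1 of the 9, Spp1, against 9.26% of all genes, and DESeq2 also called 0 of the members. The log2 fold changes had a median of -0.035 over the 9 genes and -0.00057 over all genes tested.

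Among the matrix genes, Spp1 was at 1601, 1353 and 1639 CPM in the 3 WT mice and at 1275, 1352 and 1389 CPM in the homozygous mice. All but 1 homozygous value lay below the WT values. Its log2 fold change was -0.19 (SE 0.075, 95% interval -0.35 to -0.034), with an unadjusted p of 0.020 and an adjusted p of 0.451 in edgeR. Dmp1 was at 194, 170.5 and 190.3 CPM in WT and at 157, 160.0 and 179 CPM in homozygous mice. Its groups overlapped by 1 library, and the log2 fold change was -0.16 (95% interval -0.34 to 0.0087, edgeR adjusted p = 0.568). Ibsp was at 563, 599 and 589.9 CPM in WT and at 613, 532 and 508 CPM in homozygous mice, so that homozygous mouse 1 was above every WT mouse and the other two below. Bglap ranged from 51.3 to 60.7 CPM in WT and from 53.5 to 61.1 CPM in homozygous mice, and its interval of -0.094 to 0.23 on the log2 scale held 0.

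The transcription factors and enzymes differed little. Runx2 was at 62.5, 61.3 and 63.8 CPM in WT and at 61.9, 61.2 and 60.0 CPM in homozygous mice, and its 95% interval was the narrowest of the 9, a fold of 0.914 to 1.04. Alpl was at 134, 121 and 128 CPM against 141, 119 and 130.3 CPM, a fold of 1.02 (95% interval 0.923 to 1.12). Sp7 gave a fold of 0.976 (0.881 to 1.08) and Phex one of 0.953 (0.865 to 1.05). Acan had the widest interval, a fold of 0.913 to 1.30, with 19.5, 17.0 and 16.9 CPM in WT and 22.6, 17.6 and 17.6 CPM in homozygous mice. For none of the 9 genes did the 2 genotypes separate without overlap, which 15.4% of all genes tested did. Every member's interval thus lay within a fold of 0.783 to 1.30. Without the 3 libraries high in vomeronasal receptors, 1 homozygous mouse was left and its spread had to be assumed equal to that of the other genotypes. The log2 fold change of Spp1 was then -0.26 and that of Dmp1 -0.24, whereas Ibsp turned to 0.070 and Sp7 to 0.11, and 0 members were called.

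**Figure D2:**
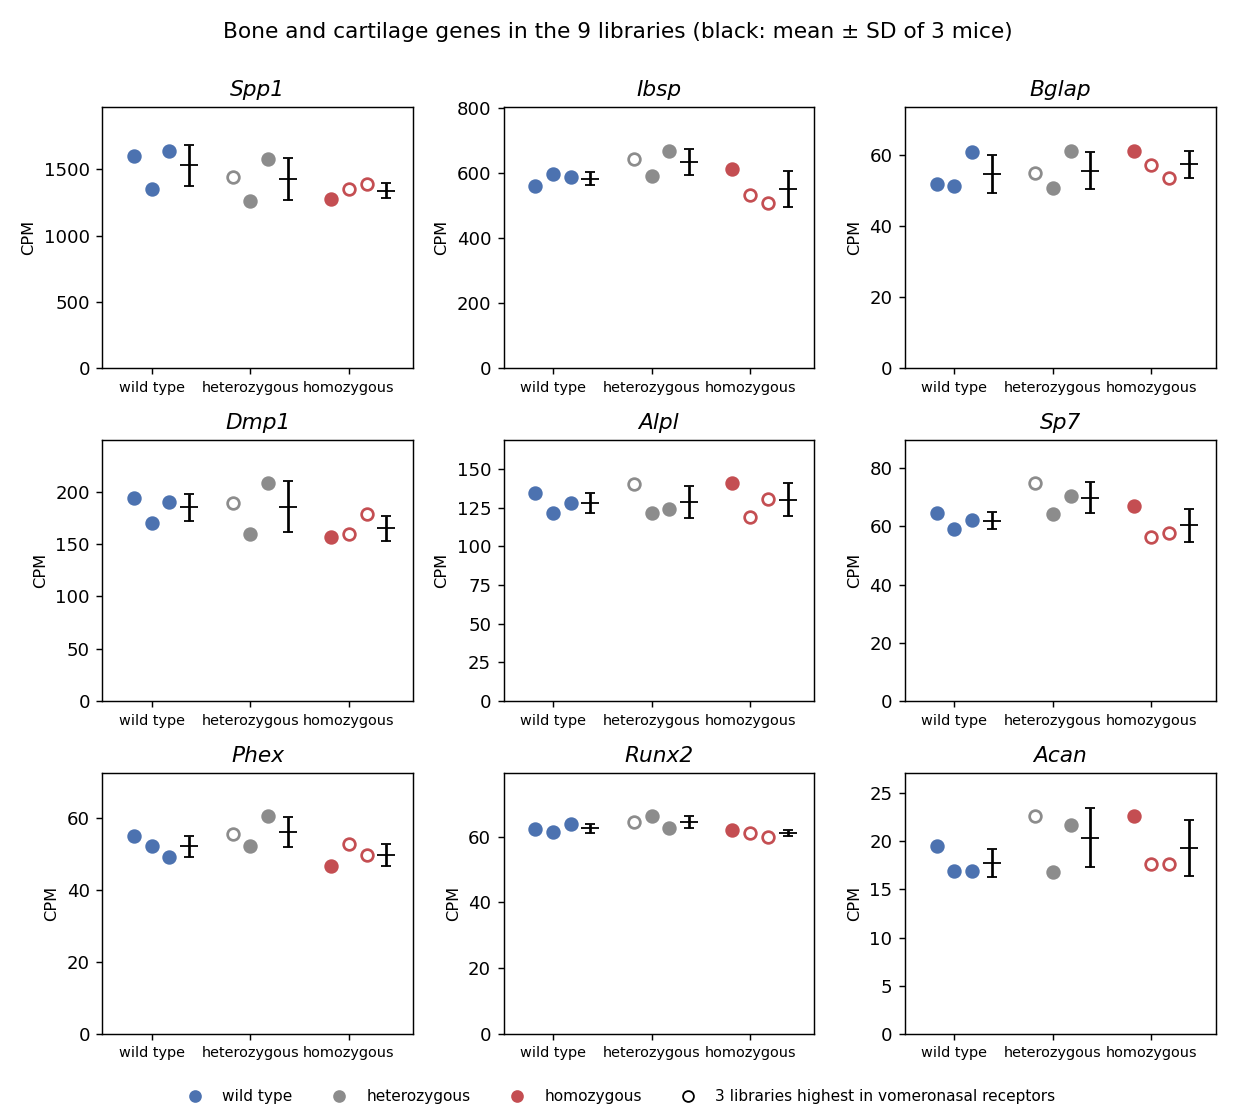
CPM of each of the 9 genes in the 3 mice of each genotype, with axes from 0, and the mean ± SD of each genotype in black. Open points are the 3 libraries highest in vomeronasal receptors. Genotypes overlap in nearly every panel, and Spp1 has its 2 highest values in WT mice.

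For heterozygous against WT mice, edgeR called 1 gene (0.00495%) and 0 of the 9 members. At an unadjusted p under 0.05 there was 1 member, Sp7, against 3.25% of all genes, and DESeq2 called 0 members. Sp7 was at 64.7, 59.1 and 62.1 CPM in WT and at 74.7, 64.3 and 70.5 CPM in heterozygous mice. The highest value was that of heterozygous mouse 1, a library high in vomeronasal receptors. Only the lowest heterozygous value fell within the WT range, and the log2 fold change was 0.17 (SE 0.069, 95% interval 0.028 to 0.32, edgeR adjusted p = 1.00). Fitted values were positive for 8 of the 9 genes and negative for Spp1 (-0.10, 95% interval -0.26 to 0.059), with a median of 0.043 against 0.0033 over all genes. Ibsp, at 645, 591 and 669 CPM in the heterozygous mice, had a log2 fold change of 0.12 (-0.013 to 0.26), and Phex, at 55.5, 52.1 and 60.5 CPM, one of 0.11 (-0.033 to 0.24). No member separated these genotypes without overlap, as 8.68% of all genes did.

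For homozygous against heterozygous mice, edgeR called 23 genes (0.114%) and again 0 of the 9 members, as did DESeq2. An unadjusted p under 0.05 was reached by 3 members, Ibsp, Sp7 and Phex, and by 10.4% of all genes. Ibsp, at 645, 591 and 669 CPM in heterozygous and 613, 532 and 508 CPM in homozygous mice, had a log2 fold change of -0.21 (SE 0.063, 95% interval -0.34 to -0.070, edgeR adjusted p = 0.279). For Sp7 the value was -0.21 (SE 0.069, -0.36 to -0.063, edgeR adjusted p = 0.305) and for Phex -0.17 (SE 0.065, -0.31 to -0.036, edgeR adjusted p = 0.370). The lower homozygous values of Ibsp and Sp7 were those of mice 2 and 3, 2 of the 3 libraries high in vomeronasal receptors. Without those 3 libraries, the log2 fold changes were -0.041 for Ibsp, -0.012 for Sp7 and -0.27 for Phex, with 1 homozygous mouse left. The part of the dissection in these values was not tested.

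Runx2 was the only member whose values did not overlap between these genotypes, with 64.5, 66.3 and 62.5 CPM in heterozygous and 61.9, 61.2 and 60.0 CPM in homozygous mice. The gap was small, a log2 fold change of -0.077 (95% interval -0.17 to 0.019, edgeR adjusted p = 0.581), and 14.1% of all genes tested separated in the same way. Dmp1 gave -0.17 (-0.34 to 0.0027), Spp1 -0.093 (-0.25 to 0.066) and Acan -0.078 (-0.33 to 0.17), while Bglap at 0.043 and Alpl at 0.016 were fitted slightly higher. The median over the 9 genes was -0.093 against -0.0017 over all genes. In the test for any difference among the 3 genotypes, 13 genes were called (0.0643%) and 0 members, with Ibsp and Sp7 at an unadjusted p under 0.05, and the lowest edgeR adjusted p of a member was 0.491.

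**Figure D3:**
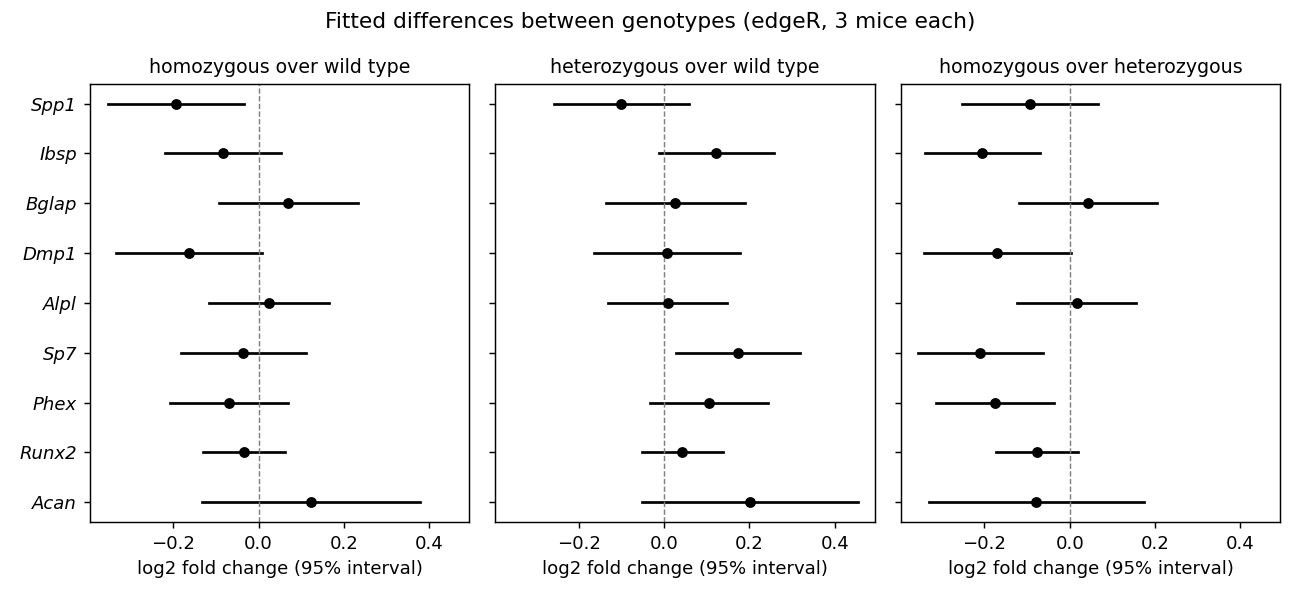
Log2 fold changes of the 9 genes with 95% intervals from edgeR for the 3 pairs of genotypes. Intervals that leave out 0 belong to Spp1 (homozygous over WT), Sp7 (heterozygous over WT) and Ibsp, Sp7 and Phex (homozygous over heterozygous), and 0 of these values passed the adjusted threshold.

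Of the lists of related genes, 0 genes were called by edgeR in any of the 3 pairs. Between homozygous and heterozygous mice, 7 of 20 osteoblast genes, 1 of 7 osteocyte genes, 3 of 20 chondrocyte genes and 4 of 11 osteoclast genes had an unadjusted p under 0.05, beside 10.4% of all genes. The medians of the log2 fold changes were -0.094, -0.087, -0.096 and -0.15, beside -0.0017 for all genes. All 11 osteoclast genes had fitted values below 0, led in level by Ctsk (-0.17, 95% interval -0.32 to -0.0085). Col11a1 had the lowest adjusted p of the chondrocyte genes, 0.108 in edgeR, at -0.25 (SE 0.053, 95% interval -0.36 to -0.14).
In homozygous against WT mice the same 4 lists had medians of -0.014, -0.098, 0.028 and -0.12, with 3, 0, 5 and 2 genes at an unadjusted p under 0.05, beside 9.26% of all genes. In heterozygous against WT mice the medians were 0.071, 0.0070, 0.12 and 0.026, with 5, 0, 4 and 1 such genes, beside 3.25% of all genes. With the 3 libraries high in vomeronasal receptors left out, the heterozygous against WT medians became 0.025, -0.059, 0.11 and -0.071. The homozygous against WT medians became -0.024, -0.17, 0.15 and -0.14 in that setting, with 1 homozygous mouse left. Without the 3 libraries high in vomeronasal receptors, the medians in homozygous against heterozygous mice were -0.045, -0.18, 0.063 and -0.13, with 1, 0, 3 and 1 genes at an unadjusted p under 0.05 beside 4.41% of all genes, and 8 of the 11 osteoclast genes had fitted values below 0. The 10 fibroblast and periosteum genes, led by Col3a1 (929 CPM), Dcn and Lum, summed to 1589 to 1665 CPM in WT and 1574 to 1762 in heterozygous mice. In homozygous mice they summed to 1489.6 to 1556 CPM, below all other sums. Their median log2 fold change was -0.12 in homozygous against WT and -0.11 in homozygous against heterozygous mice. Without the 3 libraries high in vomeronasal receptors these medians were -0.071 and -0.0064, with 1 homozygous mouse left. The 8 olfactory neuron genes summed to 7700.3 to 7787 CPM in WT, 7793 to 8321 in heterozygous and 7940.2 to 8572 CPM in homozygous mice, above every WT value. The 7 sustentacular genes (4738 to 5237 CPM) and 6 respiratory genes (2983 to 3348 CPM) overlapped between genotypes. The part of tissue makeup in the values of the 9 genes was not tested.

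Spread between mice was modest. The highest library exceeded the lowest by 1.10-fold for Runx2, the steadiest, and 1.34-fold for Acan, the most variable, with Alpl at 1.18-fold and the other 6 between Alpl and Acan. The median over the 9 genes was 1.30-fold, beside 1.24-fold over the 16167 genes with a mean of at least 1 CPM. Runx2 was among the steadiest genes of the tissue: its SD of log2 CPM within genotypes was 0.032, at the 2.73 percentile of those genes, whereas Acan, at 0.19, was at the 81.5 percentile. Sp7, the other osteoblast transcription factor, lay in between at 0.11 and the 57.7 percentile. Such ranks depend on depth as well, since a gene with more reads has less counting error.

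The members varied together only in part. Of the 36 pairs of the 9 genes, 33 had a positive Pearson r of log2 CPM across the 9 libraries, with a median of 0.29 and a range of -0.22 to 0.90. With two-sided exact permutation tests over all orders of the libraries, 4 pairs had an unadjusted p under 0.05 and 0 after Benjamini-Hochberg adjustment over the 36 pairs. By Spearman's rho 1 pair passed, Spp1 and Dmp1, and 0 passed with DESeq2 size factors or without the 2 farthest libraries. Within genotypes, libraries were permuted inside each genotype only. There, and without the 3 libraries high in vomeronasal receptors, too few orders exist for a lone pair to pass. The 0 pairs that passed in those settings therefore decide nothing about a single pair. All libraries share their dissection and scaling across genes, so the pairs are not independent of each other.

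Spp1 and Dmp1, 2 matrix genes of one cluster on chromosome 5, had r = 0.90 (exact permutation p = 0.0016, adjusted 0.058) and rho = 0.92 (exact permutation p = 0.0013, adjusted 0.047). WT mice 1 and 3 and heterozygous mouse 3 were high in both, and heterozygous mouse 2 and homozygous mouse 1 low in both. The value of r was 0.96 without the 2 libraries farthest from the median of Spp1, 0.93 within genotypes after removal of the genotype means and 0.93 without the 3 libraries high in vomeronasal receptors. Ibsp lies in the same cluster, at chr5:104299171-104311469 between Dmp1 at chr5:104202613-104214102 and Spp1 at chr5:104435118-104441050, and its r was 0.18 with Spp1 and 0.36 with Dmp1.
Its closest partner was Sp7, with r = 0.84 (exact permutation p = 0.0054, adjusted 0.098) and rho = 0.82. Heterozygous mice 1 and 3 were high in both genes and homozygous mice 2 and 3 low in both. This relation was r = 0.69 within genotypes and r = 0.64 without the 3 libraries high in vomeronasal receptors (exact permutation p = 0.17), so it rests in part on those libraries. Sp7 and Acan had r = 0.81 (exact permutation p = 0.011, adjusted 0.13), and r = 0.95 within genotypes. Alpl and Acan had r = 0.72, which dropped to 0.27 without the 2 libraries farthest from the median of Alpl.

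**Figure D4:**
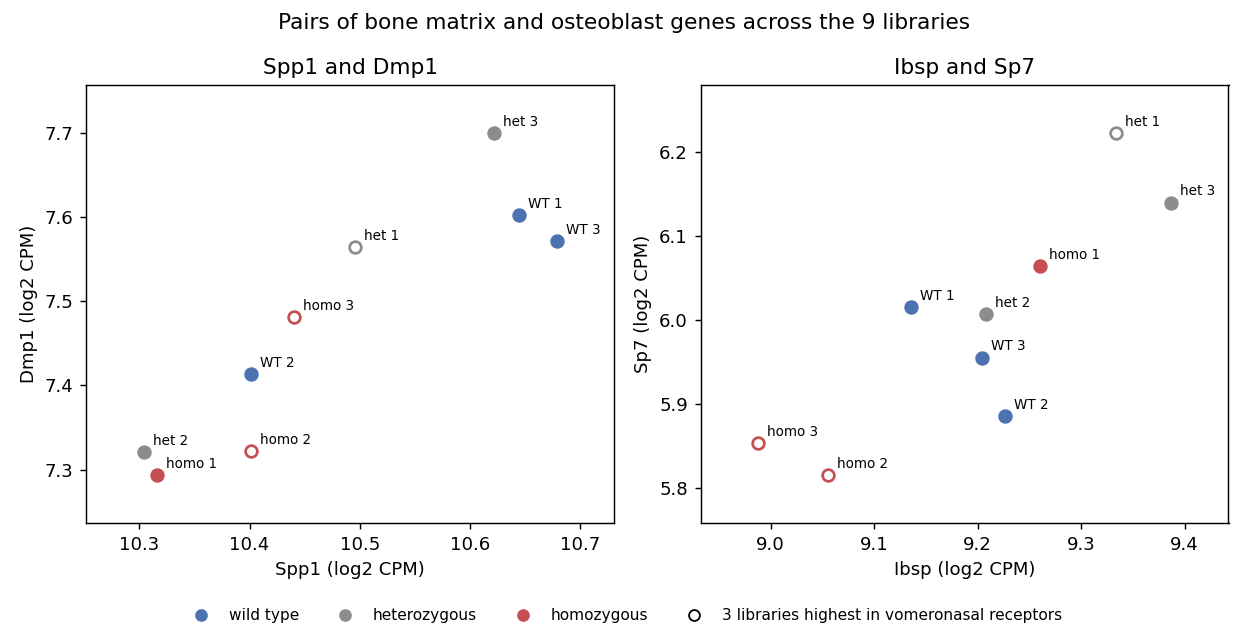
Log2 CPM of Dmp1 against Spp1 (left) and of Sp7 against Ibsp (right), 1 point per library, coloured by genotype and labelled by mouse. The points of Spp1 and Dmp1 follow one rising band with r = 0.90, and those of Ibsp and Sp7 a wider one with r = 0.84.

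The 8 bone genes were also averaged, as log2 CPM centred on each gene's mean. The average was highest in heterozygous mouse 3 (0.12) and heterozygous mouse 1 (0.087) and lowest in homozygous mouse 2 (-0.082) and homozygous mouse 3 (-0.070), the last 3 of which are the libraries high in vomeronasal receptors. Among 16158 other genes with a mean of at least 1 CPM, those with the most similar pattern over the 9 libraries were Prss35 (r = 0.91), Fam110b (r = 0.90), Loxl2 (r = 0.90), Sparc (r = 0.89) and Gria4 (r = 0.89). Loxl2 encodes an enzyme that crosslinks collagen. Genes among those most like Acan were Rcn3 (r = 0.95), Fkbp10, Col11a2 and Bgn (each r = 0.92). Fkbp10 encodes a chaperone of collagen in the endoplasmic reticulum, and Bgn (biglycan) is a small proteoglycan of bone and cartilage. With 9 libraries and so many genes, some high values of r arise in any such ranking, and they are given as a description.

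The 3 genes of the osteocalcin family are best read side by side. Which cells the reads of Bglap3 come from was not tested. Bglap was at 51.8, 51.3 and 60.7 CPM in WT, 54.9, 50.7 and 60.9 CPM in heterozygous and 61.1, 57.1 and 53.5 CPM in homozygous mice. Bglap2, the copy closest in sequence, was at 23.9, 22.6 and 24.9 CPM, then 26.0, 24.4 and 27.1 CPM, and 27.3, 25.8 and 27.9 CPM. Its homozygous values were all above its WT values, with a log2 fold change of 0.19 (SE 0.069, 95% interval 0.038 to 0.33, edgeR adjusted p = 0.447). Bglap3 was at 20.0, 20.8 and 8.70 CPM in WT, 26.4, 9.07 and 9.17 CPM in heterozygous and 19.2, 11.8 and 7.35 CPM in homozygous mice. Each genotype thus held both high and low values of Bglap3, and its highest library exceeded its lowest by 3.60-fold, at the 99.4 percentile of the 16167 genes. Its log2 fold change between homozygous and WT mice was -0.37 with an SE of 0.40, so a fold of 0.432 to 1.40 lay within its 95% interval. Bglap3 is the copy whose reads are least shared, and its spread did not appear in Bglap or Bglap2.

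**Figure D5:**
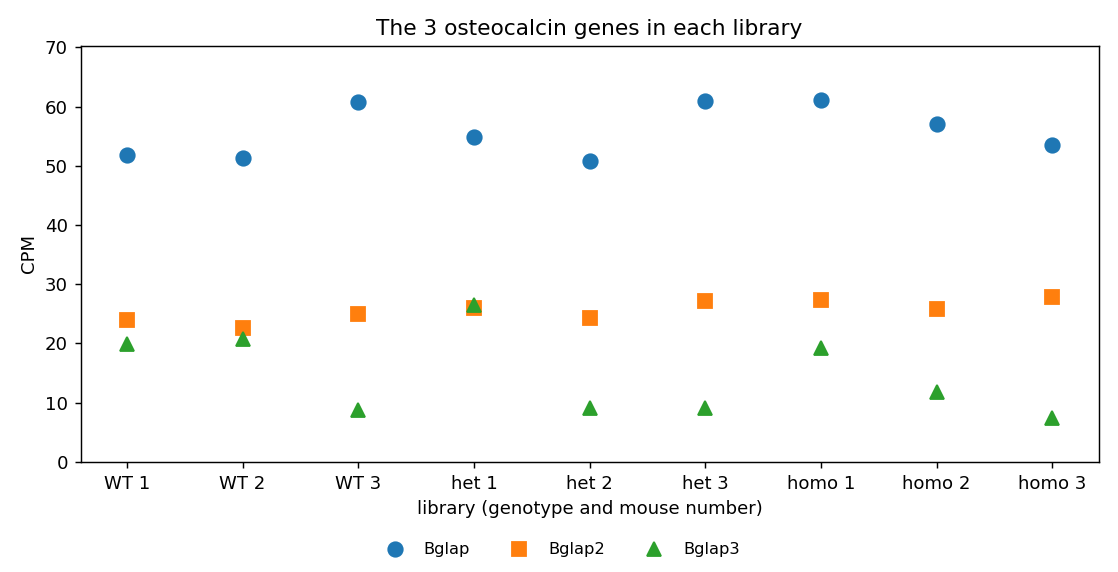
CPM of Bglap, Bglap2 and Bglap3 in each of the 9 libraries, named by genotype and mouse number. Bglap stays between 50.7 and 61.1 CPM and Bglap2 between 22.6 and 27.9 CPM, whereas Bglap3 ranges from 7.35 to 26.4 CPM over the 9 libraries, with high and low values in each genotype.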

How the data were processed

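RNA of the whole MOE was sequenced from polyA-selected, directional libraries of 9 mice. Per the labels, the authors trimmed reads with Trimmomatic 0.36, aligned them to mm10 (GRCm38) with HISAT2 2.1.0, and counted reads per gene (HTSeq 0.6.1p1 in the submitters' processing notes, featureCounts in the methods). The annotation and the strand setting are not given in the sources used here, so reads of Runx2 and of its antisense gene Runx2os1 may not be separable. The deposited table holds raw counts of 24421 genes. Library sizes exclude its 5 summary rows, and 57.4 to 60.0% of the reads it accounts for fell in genes. A second deposited table of normalized counts (DESeq2 1.20.0) was not used.

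Genes with at least 10 reads over the 9 libraries (20213) were scaled by TMM and fitted in edgeR 4.0.16 (R 4.3.3) by quasi-likelihood, in a model of genotype alone with 1 spread for all 9 libraries, Benjamini-Hochberg adjustment over all genes and a threshold of 0.05. The labels do not name separate litters, so p-values measure the spread between these 9 mice. Exon length is the union of exons in GENCODE M21. Alternatives were DESeq2 1.42.0 and its size factors, other filters, the replicate number as a block, 6 libraries only, and leaving out libraries. On simulated counts the fit returned the fold changes that had been put in. Those were larger than any change fitted for a member, and changes as small as the members' were not simulated. Intervals and read limits cover counting error and the spread between mice, not PCR duplicates, since reads carry no molecular identifiers.

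The members and the marker lists were chosen with earlier results of these data known. Named genes are the members, the copies of Bglap, from each list any gene called and the 3 highest by mean CPM, and the 5 genes most like the bone average and like Acan, of which 1 is not reported here. Cartilage and bone marrow genes below the top 3, defining markers near 0, the genes that carry a list, and the interferon genes were named after their values were seen. Snorc is listed as 3110079O15Rik.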

Additional observations from a re-analysis of the deposited data

How the results depend on the processing

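No member passed 0.05 under any alternative. The lowest adjusted p of a member was 0.060, for Ibsp between homozygous and heterozygous mice in DESeq2, which gave no adjusted p for Acan between homozygous and WT mice. Genes of the marker lists were not followed in DESeq2. Of 432 refitted log2 fold changes of members, 408 kept their direction and 24 changed sign. Outside single-library omissions, the sign changed for Dmp1, heterozygous over WT, with a replicate block (-6.3e-05), and without the 3 libraries high in vomeronasal receptors for Ibsp (0.070) and Sp7 (0.11), homozygous over WT, for Alpl (-0.057) and Dmp1 (-0.0072), heterozygous over WT, and for Acan (0.23), homozygous over heterozygous. The cause was not tested.

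Counts over all genes moved more (homozygous over WT, heterozygous over WT, homozygous over heterozygous, any difference). DESeq2 called 65, 3, 122 and 124. Without a filter on low counts the last 2 were 50 and 33. With only the 6 libraries compared the first 3 were 47, 0 and 11. Without the 3 libraries high in vomeronasal receptors the third was 6. Leaving out 1 library at a time gave 8 to 33, 0 to 1, 7 to 190 and 7 to 70.

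The paper describes the mice as littermates, but the labels do not say whether replicate numbers pair them. Deviations of same-numbered mice correlated between -0.16 and 0.30, which cannot settle this. With the replicate block the last 3 counts were 0, 41 and 20. Among the pairs of members, 1 passed the adjusted threshold without the 2 libraries farthest from the median, against 0 with all 9. Within genotypes and without the 3 libraries high in vomeronasal receptors 0 passed, but too few orders exist there for a lone pair to pass. The setting without those 3 libraries was added for the pairs and the marker lists after seeing the data. Leaving out 1 library gave log2 fold changes of -0.27 to -0.14 for Spp1 (homozygous over WT), -0.29 to -0.15 for Ibsp and -0.29 to -0.16 for Sp7 (both homozygous over heterozygous). Signs also changed on leaving out 1 library for Acan (-0.0093 to 0.19), Alpl (-0.036 to 0.086) and Sp7 (-0.12 to 0.014), homozygous over WT, for Alpl (-0.058 to 0.048), Bglap (-0.050 to 0.11) and Dmp1 (-0.087 to 0.10), heterozygous over WT, and for Acan (-0.21 to 0.00077), Alpl (-0.044 to 0.082) and Bglap (-0.017 to 0.12), homozygous over heterozygous.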

Other observations

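Bglap3 had the widest spread of the osteocalcin family, and its high libraries were also high in genes induced by interferon, the antiviral cytokines. After this was seen among the genes most like Bglap3, 9 textbook interferon-induced genes were written down (Irf7, Irf9, Ifit1, Ifit3, Usp18, Isg15, Stat2, Oasl2 and Rsad2). Their summed level was 172, 180.2 and 156 CPM in WT, 195, 155 and 149.6 CPM in heterozygous and 175, 160.4 and 145 CPM in homozygous mice. WT mice 1 and 2, heterozygous mouse 1 and homozygous mouse 1, the 4 libraries with Bglap3 at 19.2 CPM or more, had the 4 highest sums. Across the 9 libraries the log2 values of Bglap3 and of the sum had r = 0.97 (exact permutation p = 4.7e-05) and rho = 0.92 (exact permutation p = 0.0013), and r = 0.96 without the 2 libraries farthest from the median of Bglap3. As the list was chosen after the pattern was seen on the same libraries, these p-values are a description. Usp18, which encodes a protease that removes the ubiquitin-like protein Isg15, moved between 6.62 and 9.83 CPM (r = 0.93), and Rsad2, an antiviral enzyme, was least alike (r = 0.44). Bglap and Bglap2 did not show this spread.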
